A study of Mus musculus with 8 samples.

Results

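The genes of 3 protein families that cut the extracellular matrix, or hold the cutters in check, were followed in mouse paw: the matrix metalloproteinases (Mmp), the secreted ADAMTS metalloproteinases (Adamts) and the tissue inhibitors of metalloproteinases (Timp). Members were all rows whose symbol starts with one of these 3 names followed by a digit, which gave 46 of 22609 gene symbols, namely 23 Mmp, 19 Adamts and 4 Timp genes. The study sequenced polyadenylated RNA of paw tissue from C57BL/6J mice, 4 male and 4 female libraries. All 8 libraries are labelled as from mice given 0.1 µg prolactin (PRL), a pituitary hormone best known for its role in lactation, on each of 12 days by intraplantar (i.pl.) injection. The labels give no age and do not say which paw was taken. Arms without prolactin were not analysed here, so every value describes the prolactin-treated paw, and the one contrast is female against male. The series is about prolactin and sex-dependent lasting pain.

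Both protease families hold a zinc ion in the active site and are made as precursors with a prodomain, whose removal activates many of them. MMPs differ in what they cut (collagenases open the collagen triple helix, gelatinases cut denatured and basement membrane collagen, stromelysins cut a broad range), and some stay anchored in the cell membrane. ADAMTS enzymes trim proteoglycans such as aggrecan and versican, remove the N-propeptide of procollagens, or process cartilage and blood proteins. TIMPs bind the active site of MMPs, and TIMP3 also blocks several ADAMTS enzymes. In skin these genes are best known from wound repair, hair growth and inflammation, and in joints from cartilage loss.

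Libraries held 16753528 to 24993744 counts in genes. The sex-chromosome transcript Xist, which coats the inactive X chromosome, stood at 1568 to 1860 CPM (read counts scaled to library size) in females and 1.39 to 1.91 CPM in males, as labelled. Libraries differed in the levels of cell type markers. The summed level of 20 fast skeletal muscle genes ran from 1084 to 32229 CPM in males and from 48.3 to 23958 CPM in females, lowest in female replicate 3. The 10 keratinocyte markers, which mark the epidermis, were present in every library (41373 to 70889 CPM in sum). Female replicate 4 held the most fibroblast and macrophage marker transcript, and female replicates 2 and 3 the least. In bulk tissue, fewer cells of a type and less RNA per cell cannot be told apart.

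Of the 23 Mmp genes, 10 lie side by side on chromosome 9 with no other protein-coding gene between them in RefSeq's GRCm38.p6 annotation, in the order Mmp13, Mmp12, Mmp1b, Mmp3, Mmp1a, Mmp10, Mmp8, Mmp27, Mmp20 and Mmp7. Adamts1 with Adamts5, and Adamts15 with Adamts8, are the other adjacent members. RefSeq's promoter table of that build (300 bases per start site, of which 250 lie before it) held 32 of the 46 genes in 35 promoters. Promoters of the chromosome 9 genes had a GC content of 37.7 to 52.0%, and those of all other members 53.3 to 80.0%, with no overlap. Next, 3 motifs were searched on both strands in every promoter. The AP-1 motif TGAGTCA, the site of Fos and Jun factors, occurred in promoters of 7 of the 10 chromosome 9 genes and of 0 of the 22 other genes, against 5.2% of all 32851 promoters. The TATA motif TATAAA occurred for 9 of the 10 and 2 of the 22 (13.6% of all promoters). The GC box GGGCGG, a site of Sp1-type factors, occurred for 0 of the 10 and 18 of the 22 (35.7% of all promoters). The motifs were chosen after gene values had been seen, and a match is a run of letters, not a shown binding site. The 250 bases before the start are printed here for 6 genes, on the gene's own strand, with matches to these motifs in capitals. The first 4 are chromosome 9 genes with an AP-1 match, of which Mmp3, Mmp12 and Mmp13 were detected in every library and Mmp1a hardly at all. Mmp14 and Timp2 are shown as highly expressed members with GC boxes.

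Mmp3 (chr9:7445572-7445821, + strand): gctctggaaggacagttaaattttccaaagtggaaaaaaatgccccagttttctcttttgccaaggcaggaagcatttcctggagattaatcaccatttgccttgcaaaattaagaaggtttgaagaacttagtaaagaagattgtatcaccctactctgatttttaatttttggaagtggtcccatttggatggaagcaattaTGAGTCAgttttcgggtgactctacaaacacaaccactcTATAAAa
Mmp12 (chr9:7347124-7347373, + strand): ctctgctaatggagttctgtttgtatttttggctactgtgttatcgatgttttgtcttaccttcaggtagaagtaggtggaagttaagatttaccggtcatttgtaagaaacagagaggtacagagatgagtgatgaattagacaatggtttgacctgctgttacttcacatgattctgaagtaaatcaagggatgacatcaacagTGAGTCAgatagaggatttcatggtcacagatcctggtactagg
Mmp13 (chr9:7272264-7272513, + strand): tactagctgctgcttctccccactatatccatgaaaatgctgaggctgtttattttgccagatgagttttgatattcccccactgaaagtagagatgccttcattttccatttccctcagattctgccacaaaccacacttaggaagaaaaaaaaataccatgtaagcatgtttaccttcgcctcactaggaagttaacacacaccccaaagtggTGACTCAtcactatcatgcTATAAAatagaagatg
Mmp1a (chr9:7463891-7464140, + strand): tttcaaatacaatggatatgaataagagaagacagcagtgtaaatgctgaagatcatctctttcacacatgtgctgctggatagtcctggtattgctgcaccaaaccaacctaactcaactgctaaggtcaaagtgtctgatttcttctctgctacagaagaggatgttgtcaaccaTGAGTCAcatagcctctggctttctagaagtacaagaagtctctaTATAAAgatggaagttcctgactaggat
Mmp14 (chr14:54431348-54431597, + strand): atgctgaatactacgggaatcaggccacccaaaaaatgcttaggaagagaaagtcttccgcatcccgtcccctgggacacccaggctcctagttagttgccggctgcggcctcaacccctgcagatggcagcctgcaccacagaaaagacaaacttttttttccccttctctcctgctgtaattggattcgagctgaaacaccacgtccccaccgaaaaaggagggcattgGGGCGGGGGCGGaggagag
Timp2 (chr11:118355412-118355661, - strand): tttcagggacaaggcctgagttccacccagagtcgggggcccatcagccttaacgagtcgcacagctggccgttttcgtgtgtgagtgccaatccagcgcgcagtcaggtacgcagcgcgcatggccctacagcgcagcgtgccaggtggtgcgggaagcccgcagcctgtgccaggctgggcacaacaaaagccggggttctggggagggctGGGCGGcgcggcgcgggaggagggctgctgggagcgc

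In Mmp3, Mmp13 and Mmp1a the AP-1 match starts 46, 35 and 73 bases before the start site and the TATA match 7, 16 and 28 bases before it. For Mmp12, which has a pair of start sites in the table, the AP-1 match stands 44 bases before the downstream one, and a TATA match follows just after that start, outside the printed stretch. In Mmp13 the AP-1 letters lie on the other strand and read TGACTCA here. The 7 genes with the AP-1 letters ranged from Mmp3 at a mean of 16.3 CPM per kb of exon to Mmp7 with 1 count in 8 libraries, so the letters were present in promoters of detected and of nearly undetected genes alike.

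Level was compared between genes as CPM per kb of exon, with exon lengths from GENCODE vM21 (GRCm38), which need not be those the authors counted. On this scale the inhibitor Timp2 (mean 114 CPM per kb over 8 libraries), the gelatinase gene Mmp2 (104), the inhibitor Timp3 (57.4), the membrane-type protease gene Mmp14 (51.9) and the inhibitor Timp1 (37.4) led all members. Ranges over the libraries overlapped between neighbours in this order. Within a library, Timp2 was above Mmp2 in 7 of 8 libraries, Mmp2 above Timp3 in 8 of 8, Timp3 above Mmp14 in 5 of 8 and Mmp14 above Timp1 in 7 of 8. Next came the stromelysin gene Mmp3 (16.3), the proteoglycanase gene Adamts1 (10.0) and the metalloelastase gene Mmp12 (9.54). Timp1 was above Mmp3, and Mmp3 above Adamts1, in 8 of 8 libraries, and Adamts1 above Mmp12 in 4 of 8. The other tested members lay between 9.45 and 0.201 CPM per kb.

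**Figure D1:**
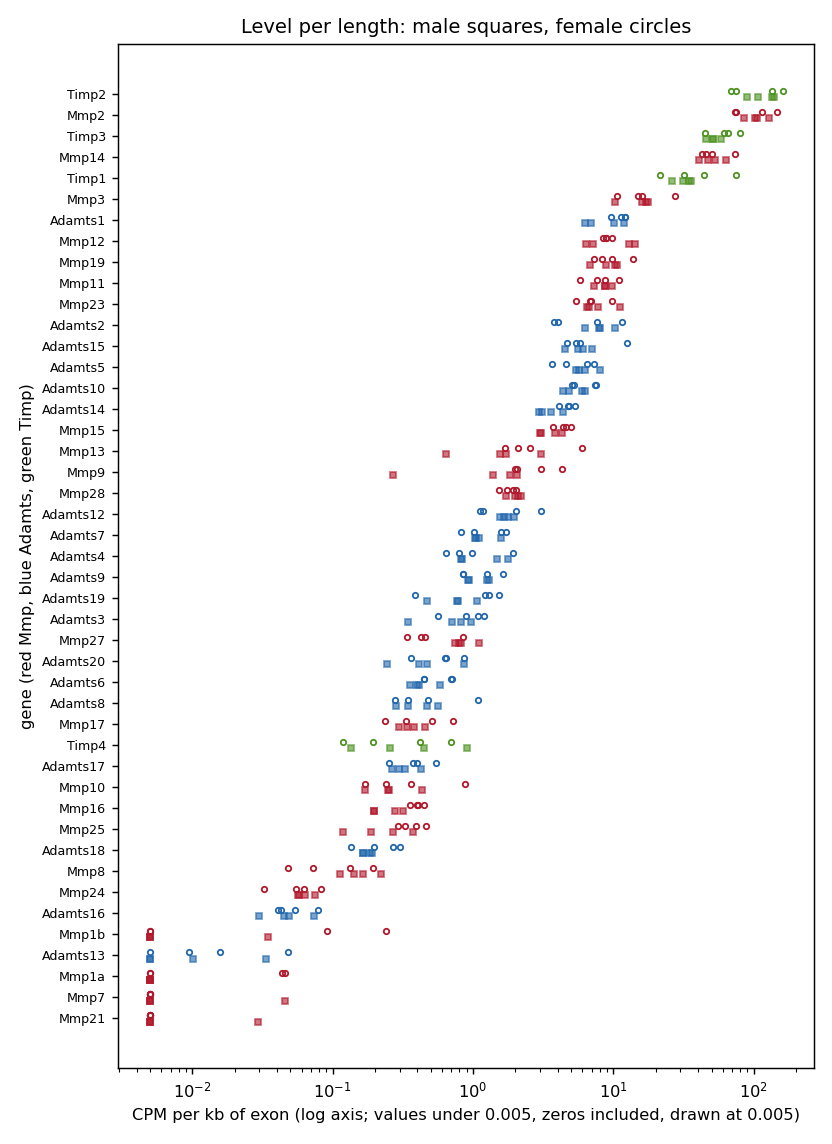
Level of each member with at least 1 count, as CPM per kb of exon on a log axis; each point is 1 library, squares male and circles female, and genes are ordered by their mean, and values under 0.005 are drawn at 0.005. Timp2 and Mmp2 stand at the top near 100 CPM per kb, and Mmp1a, Mmp7 and Mmp21 at the bottom, at 0 in most libraries.

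A filter on low counts (filterByExpr of edgeR) kept 36 members, namely 15 Mmp, 17 Adamts and all 4 Timp genes. The 10 others were hardly detected. Mmp20, the enamel protease enamelysin, had 0 counts in all 8 libraries, which allows up to 0.0182 CPM over the libraries together (3 counts, counting error only). Mmp7 and Mmp21 had 1 count each in 1 library. The collagenase genes Mmp1a and Mmp1b had at most 2 and 9 counts per library, and Adamts13, which cuts von Willebrand factor in blood, at most 4. Mmp8, the neutrophil collagenase, had 3 to 10 counts per library, Mmp24 had 3 to 8, Adamts16 had 3 to 11 and Mmp10 had 5 to 34. Just inside the filter were Adamts18 (mean 1.13 CPM), Mmp27 (1.20) and Mmp25 (1.37), and just outside it Mmp10 (0.592), Mmp8 (0.329) and Adamts16 (0.281). Of the 4 collagenase genes, Mmp13 alone passed the filter. Exons of Mmp12 and Mmp1b overlap on opposite strands in GENCODE vM21, and how the counting used strand is not given, so the few Mmp1b counts are uncertain.

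The pair Mmp2 and Mmp14 made up most Mmp transcript. MMP14 is the membrane protease that activates the MMP2 precursor on the cell surface, with TIMP2 as the bridge between them. Mmp2 stood at 322, 315, 394 and 263 CPM in male replicates 1 to 4 and at 351, 229.6, 227 and 453 CPM in female replicates 1 to 4. Mmp14 stood at 219.9, 172, 263 and 197 CPM in males and 209, 192, 178 and 308 CPM in females. Female replicate 4 was highest for both, and the females spanned a wider range than the males. Together they held 69.5 to 78.8% of the Mmp CPM of each library, which is not corrected for length.

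Timp2 stood at 395, 518, 498 and 332 CPM in male replicates 1 to 4 and at 502, 255, 276 and 597 CPM in the females. Timp3, whose product sits in the matrix, stood at 217, 277, 241 and 243 CPM in males and 310.0, 212, 291 and 379 CPM in females. Timp2 and Timp3 together made up 92.2 to 96.6% of the Timp CPM, which is not corrected for length. Per kb of exon the means were 114 CPM for Timp2, 57.4 for Timp3 and 37.4 for Timp1. The secreted, inducible inhibitor Timp1 stood at 28.0, 23.2, 30.8 and 31.4 CPM in males against 28.5, 38.9, 18.9 and 66.0 CPM in females, whose values enclosed all those of the males. Timp4, known from heart and other muscle, was counted 15 to 99 times per library and stood at 0.796, 5.29, 2.62 and 1.52 CPM in males and 4.12, 0.693, 1.15 and 2.47 CPM in females. High and low Timp4 libraries occurred in both sexes. Timp1, Timp3 and Timp4 each lie within a synapsin gene on its opposite strand in GENCODE vM21; of these, Timp4 shares exon sequence with Syn2.

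Summed over each family, the 23 Mmp genes had 709 ± 115 CPM in males and 722 ± 194 CPM in females (SD, n = 4 each). The 19 Adamts genes had 311 ± 53.7 against 331 ± 93.0 CPM, and the Timp genes 711 ± 103 against 746 ± 246 CPM. The ratio of summed Mmp to summed Timp CPM was 1.01 ± 0.181 in males and 0.989 ± 0.116 in females, from 0.750 in male replicate 2 to 1.15 in male replicate 1. Neither the sums nor the ratio are corrected for length. Mean family sums of the sexes thus lay within 1 SD of each other, while single libraries ran from 506 to 1045 CPM for the Timp genes.

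Among the ADAMTS proteoglycanase genes, Adamts5 stood at 58.6, 68.0, 87.0 and 60.9 CPM in males and 70.0, 49.9, 39.6 and 78.1 CPM in females. Adamts1 stood at 33.6, 49.4, 57.6 and 30.7 CPM in males and at 59.0, 46.9, 58.9 and 54.8 CPM in females. In Adamts15 the 3 lower female libraries lay at 27.5 to 34.5 CPM and female replicate 4 at 74.2 CPM, against 26.6 to 41.8 CPM in males. Adamts9 (6.79 to 13.0 CPM), Adamts4 (3.09 to 9.26 CPM), Adamts20 (2.06 to 7.33 CPM) and Adamts8 (1.02 to 3.95 CPM) make up the rest. Thus Adamts1 was even across females, and Adamts15 was not.

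Of the procollagen N-proteinase genes, Adamts2 stood at 57.0, 58.5, 74.9 and 45.8 CPM in males and at 55.6, 29.2, 27.6 and 83.9 CPM in females. Adamts14 stood at 15.4, 16.0, 22.8 and 18.6 CPM in males and 25.2, 24.5, 21.2 and 27.6 CPM in females. The sexes overlapped for Adamts14 by male replicate 3 and female replicate 3 alone. Adamts3 ran from 1.81 to 6.32 CPM. The genes for the enzymes that cut cartilage oligomeric matrix protein, Adamts12 (9.53 to 26.2 CPM) and Adamts7 (4.71 to 9.83 CPM), peaked in female replicate 4. In the remaining group, Adamts10, which acts on fibrillin microfibrils, ran from 26.3 to 44.7 CPM, beside Adamts19 (1.99 to 7.84 CPM), Adamts6 (2.35 to 4.70 CPM), Adamts17 (1.65 to 3.58 CPM) and Adamts18 (0.766 to 1.70 CPM).

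Among the detected chromosome 9 genes, Mmp12, the elastase best known from macrophages, stood at 56.6, 25.2, 51.3 and 28.3 CPM in males and 33.5, 38.9, 35.2 and 35.1 CPM in females. Mmp3 stood at 28.9, 18.6, 32.0 and 30.8 CPM in males and 28.6, 19.2, 27.0 and 49.3 CPM in females. The interstitial collagenase gene Mmp13 stood at 8.11, 1.71, 4.15 and 4.60 CPM in males and 4.48, 5.59, 16.0 and 6.79 CPM in females. Each of these neighbours peaked in another library (male replicate 1, female replicate 4 and female replicate 3). Mmp27 stood at 1.29, 1.39, 1.91 and 1.42 CPM in males and 0.589, 0.739, 0.794 and 1.47 CPM in females, so that female replicate 4 alone reached the males.

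Outside that cluster, the gelatinase gene Mmp9, whose product is abundant in neutrophils and osteoclasts, stood at 6.52, 0.856, 5.84 and 4.41 CPM in males and 6.36, 6.56, 9.71 and 13.7 CPM in females. Females and males overlapped for it. Beside Mmp14, the membrane-type genes were Mmp15 (15.3 to 25.5 CPM), Mmp17 (1.52 to 4.63 CPM), Mmp16 (0.980 to 2.24 CPM) and Mmp25 (0.535 to 2.08 CPM). Mmp19 ran from 23.3 to 47.3 CPM, the stromelysin gene Mmp11 from 13.3 to 25.03 CPM, Mmp23 from 7.71 to 15.9 CPM and Mmp28, the epidermal MMP epilysin, from 5.77 to 8.29 CPM.

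Spread between libraries of the same sex was described by 1 value per gene. The edgeR biological coefficient of variation had a median of 0.283 over the 36 tested members and of 0.195 over all 14790 tested genes. It was largest for Timp4 (0.654), Mmp9 (0.529), Mmp13 (0.523), Adamts8 (0.438) and Adamts19 (0.420), and smallest for Adamts14 (0.188), Mmp28 (0.191) and Mmp15 (0.194). Highest over lowest library was 16.0-fold for Mmp9, 9.36-fold for Mmp13 and 1.44-fold for Mmp28. Male replicate 2 was the lowest for both Mmp9 (0.856 CPM) and Mmp13 (1.71 CPM). The highest was female replicate 4 for Mmp9 (13.7 CPM) and female replicate 3 for Mmp13 (16.0 CPM). These ratios thus rest on the extreme libraries.

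**Figure D2:**
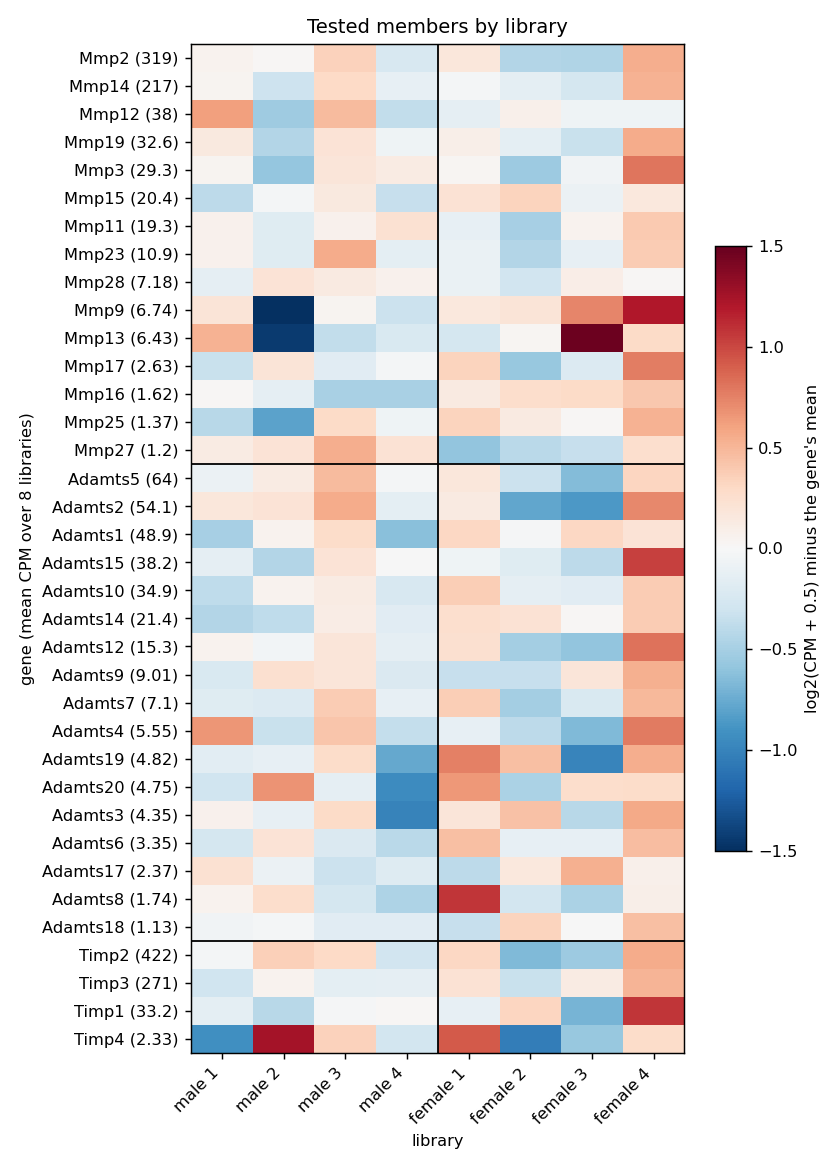
Each tile is log2(CPM + 0.5) of a gene in a library minus that gene's mean over the 8 libraries; rows are the 36 tested members by family with their mean CPM, columns the 8 libraries. The column of female replicate 4 is red for most rows, while female replicates 2 and 3 are blue for Mmp2, Adamts2 and Timp2.

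Most members were highest in 1 library. Female replicate 4 was the highest of the 8 for 23 of the 36 tested members (63.9%), while it was highest for 19.7% of all tested genes. No other library was highest for more than 3 members. The lowest library was female replicate 2 for 9 members, and female replicate 3 and male replicate 2 for 8 each. Measured as the median difference from each gene's mean over the libraries, the members stood at 0.51 (log2) in female replicate 4 and at -0.24, -0.22 and -0.15 in female replicate 2, male replicate 4 and female replicate 3. Over all tested genes this median stayed within -0.02 and 0.03 in every library, which the TMM scaling of the libraries largely sets beforehand. In female replicate 4 the 3 families shifted alike, with medians of 0.50 for Mmp, 0.52 for Adamts and 0.53 for Timp genes.

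**Figure D3:**
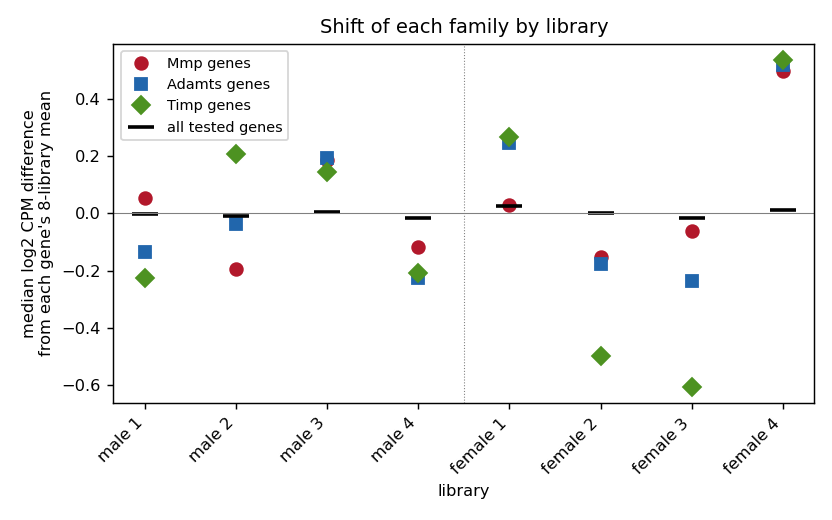
Median over the tested genes of each family of the log2 CPM difference from the gene's mean over 8 libraries (vertical axis), by library (horizontal axis); black bars give the same median over all tested genes. All 3 families lie near 0.5 in female replicate 4, and the black bars stay close to 0 throughout, which the scaling of the libraries largely sets.

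The members that rose and fell from library to library were then set beside marker lists of 13 cell types. For each member and list, Pearson's r and Spearman's rho were computed over the 8 libraries between the gene's log2 CPM and the mean log2 CPM of the list, with two-sided exact permutation p adjusted (Benjamini-Hochberg) over all tested genes and lists, 192166 pairs. The libraries share size factors and tissue makeup, and 4 libraries per sex are too few to repeat this within a sex. Of 468 member-list pairs 3 passed. Mmp2 followed the fibroblast list (r = 0.98, rho = 1.0, exact permutation p = 2.48e-05, the smallest that 8 libraries can give, adjusted p = 0.0259). Adamts12 followed it too (r = 0.99, rho = 0.98, exact permutation adjusted p = 0.0328). Adamts8, low in CPM, followed the tenocyte list (r = 0.92, rho = 0.98, exact permutation adjusted p = 0.0328). By this rule 0.622% of all tested genes passed for fibroblasts and 0.325% for tenocytes. With the other 11 lists 0 members passed, where the share of all genes was 1.65% for fast muscle, 0.575% for endothelial, 0.494% for chondrocyte, 0.46% for macrophage and 0.359% for keratinocyte markers. It was 0.129% for smooth muscle and pericyte, 0.0338% for neutrophil and 0.0271% for adipocyte markers, and 0.0203% for each of the osteoclast, mast cell and Schwann cell lists. Without the 2 libraries farthest from the list's median (female replicates 2 and 3 for fibroblasts, female replicate 1 and male replicate 2 for tenocytes), r was 0.95, 0.98 and 0.94. Female replicate 4, where the fibroblast list was highest, stayed in. Without that library alone the members' median r with the fibroblast list was 0.35, against 0.54 over all 8 libraries. With 7 libraries the smallest possible p is 0.000198, and no pair passed whichever library was left out.

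Counted by size alone, 7 of the 36 members had an r of at least 0.8 with the fibroblast list, namely Adamts12, Mmp2, Adamts2 (0.97), Timp2 (0.94), Adamts5 (0.88), Adamts7 (0.83) and Adamts4 (0.82). This was 19.4% of the members, against 8.78% of all tested genes. The count ran from 5 without female replicate 4 (7.59% of all tested genes) to 11 without male replicate 2 (11.7%). The macrophage list had 5 such members (13.9%, against 8.32% of all genes), Adamts12, Adamts2, Mmp2, Timp2 and Adamts5, all among those 7, and up to 10 without male replicate 2 (11.3%). With the osteoclast list, whose genes Ctsk and Acp5 other cells also express, 5 members reached 0.8 (1.84% of all genes), led by Mmp14 (0.86) and Mmp19 (0.85), and 2 without female replicate 4 (1.85%). Mast cell markers had 6 such members (3.53%), led by Mmp17 (0.90), and 0 without female replicate 4 (0.927%). Schwann cell markers had 5 (6.14%), from 3 without female replicate 4 to 8 without male replicate 1. Endothelial markers had 4 (9.09%), and 13 without male replicate 2 (12.4%). Smooth muscle and pericyte markers had 2 (2.75%), and 8 without female replicate 3 (7.85%). Chondrocyte and tenocyte markers had 3 each (11.7% and 11.6%), and 1 each without female replicate 1. Neutrophil, adipocyte, fast muscle and keratinocyte markers had 0 (1.45%, 0.568%, 7.65% and 7.55%), and with a library left out at most 1, 3, 3 and 0. With the keratinocyte list 4 members had an r of -0.8 or lower, Adamts6 (-0.97), Adamts10 (-0.94), Mmp17 (-0.88) and Timp3 (-0.85), where 6.38% of all genes did. The members' median r was of like size for several lists, at 0.54 for fibroblast, 0.53 for mast cell, 0.52 for Schwann cell, 0.50 for macrophage and -0.52 for keratinocyte markers. Over all tested genes these medians lay between -0.082 and 0.042. The threshold of 0.8 was chosen after gene values had been seen.

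Of the fibroblast markers, Pdgfra, the PDGF receptor of mesenchymal cells, stood at 114, 145, 133 and 102 CPM in males and 138, 81.8, 67.0 and 197 CPM in females. The 9 fibroblast markers summed to 1011 to 1242 CPM in males and 682 to 1700 CPM in females, and all 9 were detected. The 10 macrophage markers summed to 1459 to 1720 CPM in males and 798 to 2779 CPM in females. Their part in the members' levels was not tested. Genes with little relation to the fibroblast list included Mmp15 (r = 0.07), Mmp9 (0.07), Mmp16 (-0.09), Mmp12 (0.10) and Adamts1 (0.11), and Mmp13 had -0.34. None of these 6 relations passed the test.

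**Figure D4:**
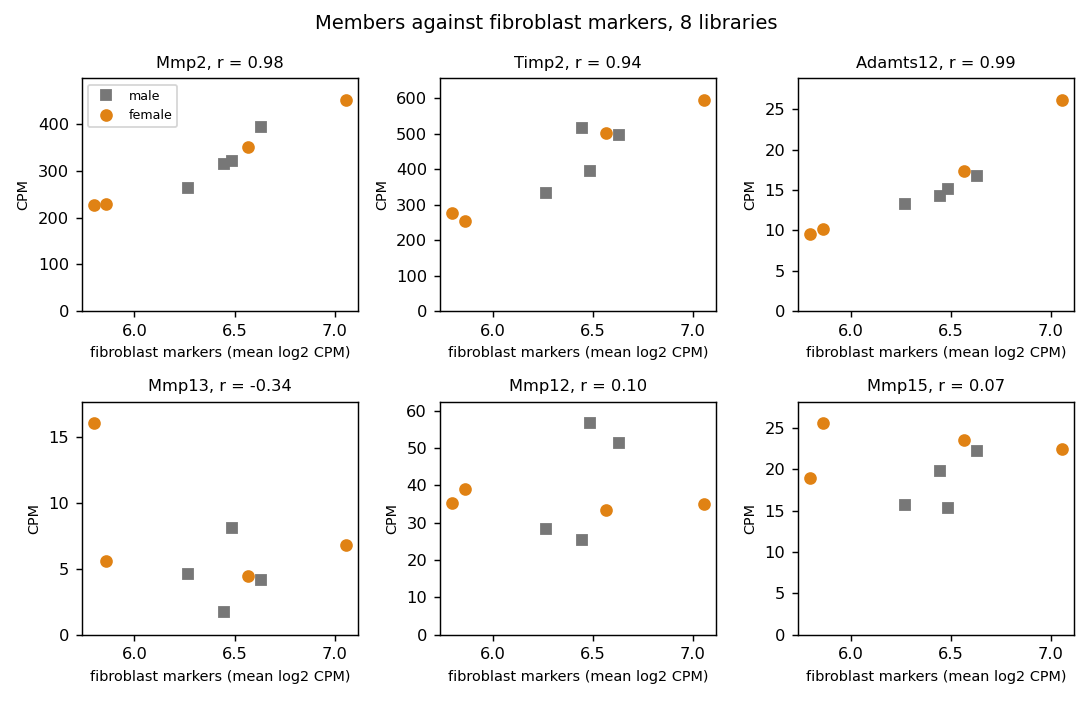
CPM of 6 members (vertical axes, from 0) against the mean log2 CPM of 9 fibroblast markers (horizontal axes); each point is 1 library, grey squares male and orange circles female. Mmp2, Timp2 and Adamts12 climb with the markers in both sexes, while Mmp13, Mmp12 and Mmp15 show no such order.

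Between females and males, no member passed the test. Of the 36 tested members, edgeR's quasi-likelihood test called 0 at an adjusted p under 0.05, where it called 0.0947% of all 14790 tested genes. DESeq2 and limma-voom called 0 members as well, where they called 0.652% and 0.108% of all genes. At an unadjusted p under 0.05 edgeR had 2 members, Mmp16 and Adamts14, where 6.53% of all genes had one. The smallest adjusted p of any member was 0.650. The labels do not say that the libraries of a sex come from separate animals beyond naming them as 4 males and 4 females, and p-values measure the spread between these libraries.

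The 2 members of smallest p were both higher in females on average. Mmp16, which encodes a membrane-type MMP, stood at 1.59, 1.39, 0.982 and 0.980 CPM in males and 1.77, 1.99, 2.03 and 2.24 CPM in females, and was the one tested member whose sexes did not overlap, where 4.73% of all tested genes did not. It was counted 18 to 58 times per library. Its log2 fold change, female over male, was 0.70 (SE 0.23, 95% interval 0.18 to 1.22, edgeR adjusted p = 0.650, DESeq2 adjusted p = 0.513). Adamts14 had a log2 fold change of 0.44 (SE 0.14, interval 0.11 to 0.77, edgeR adjusted p = 0.650, DESeq2 adjusted p = 0.375). Neither difference passed. With any 1 library left out, the log2 fold change ran from 0.60 to 0.84 for Mmp16 and from 0.36 to 0.56 for Adamts14. For Mmp16 the sign could not change, as its sexes did not overlap. Both genes were picked by their small p in these same libraries, so nothing is drawn from these ranges.

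Next in order of p among members above 0 were Mmp15 (log2 fold change 0.31, SE 0.15), Mmp9 (1.04, SE 0.54) and Mmp25 (0.63, SE 0.35), with edgeR adjusted p of 0.785, 0.815 and 0.841. Among those below 0 the smallest p belonged to Mmp27 (-0.72, SE 0.32, edgeR adjusted p = 0.761), Mmp28 (-0.14, SE 0.14), Adamts5 (-0.21, SE 0.22), Adamts2 (-0.27, SE 0.36) and Mmp12 (-0.18, SE 0.26). With a library left out, Adamts2 ran from -0.67 without female replicate 4 to -0.070 without female replicate 3, and Adamts5 from -0.38 to -0.056 without the same libraries. Of the most abundant members, Mmp2, Mmp14 and Timp2 had intervals centred near 0 but wide, and Timp3 had one centred at 0.28. The 95% interval of the log2 fold change was -0.59 to 0.51 for Mmp2, -0.39 to 0.51 for Mmp14, -0.77 to 0.58 for Timp2 and -0.10 to 0.67 for Timp3. For Mmp9, Mmp13 and Timp4 it ran from -0.19 to 2.27, from -0.40 to 2.04 and from -1.85 to 1.28, so the intervals hold differences of more than 2-fold.

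**Figure D5:**
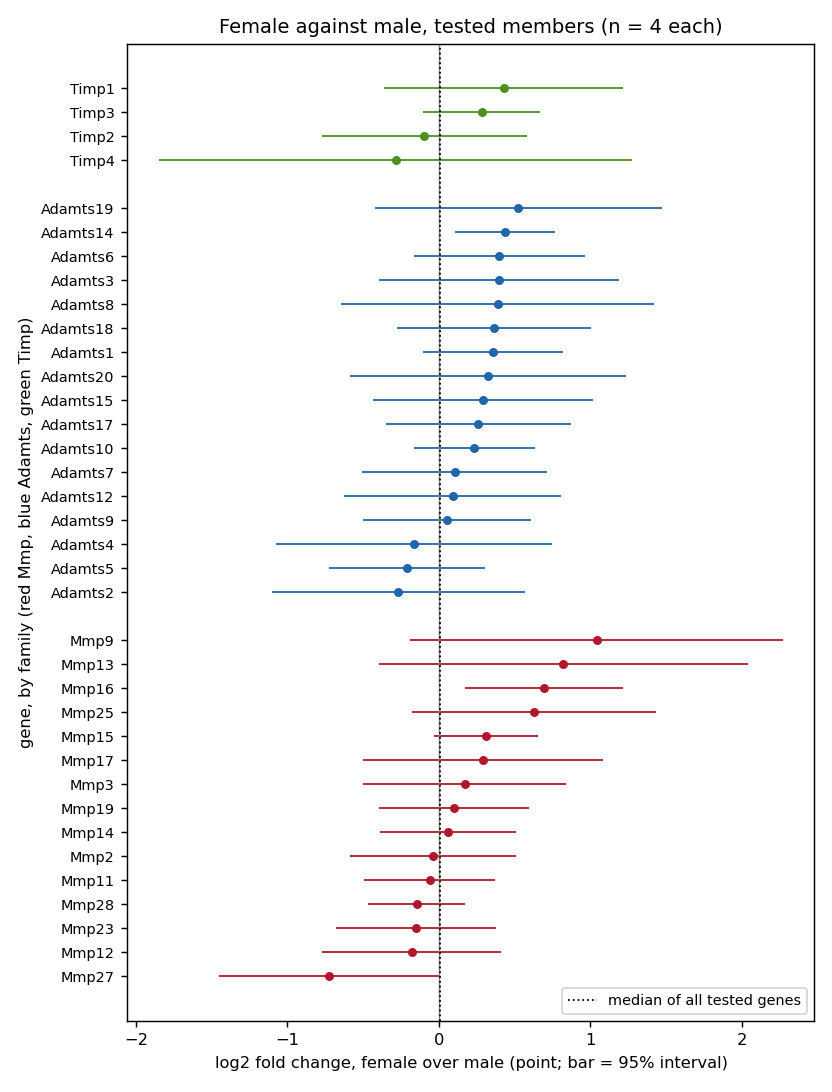
Log2 fold change, female over male, of the 36 tested members by family (points) with its 95% interval (bars); the dotted line is the median of all tested genes. Intervals of Mmp16 and Adamts14 exclude 0 before adjustment for the number of genes, and no member passed after it.

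By family, 9 of 15 Mmp, 14 of 17 Adamts and 2 of 4 Timp genes lay above 0, in all 25 of 36 (69.4%), against 52.7% of all tested genes. The median log2 fold change was 0.25 over the members (0.10 for Mmp, 0.29 for Adamts and 0.09 for Timp genes) and 0.01 over all tested genes. Female replicate 4 weighed on this count: without it 17 of the 36 lay above 0 and the median was -0.063. The count was 29 without female replicate 2 and 28 without female replicate 3. The share of all tested genes above 0 was not computed with a library left out. Without female replicate 4 the median of the Adamts genes was 0.19. Timp1, with a log2 fold change of 0.43 (SE 0.34) over all libraries, had 0.01 without it, and Adamts15 went from 0.29 (SE 0.32) to -0.14. By role, 5 of 5 tested membrane-type Mmp genes lay above 0 with a median of 0.31. Without female replicate 4 it was 3 of 5, with the median still at 0.31, and Mmp14 had -0.15. Of the remaining Mmp genes without a class of their own (Mmp19, Mmp23, Mmp27 and Mmp28) 1 of 4 lay above 0 (median -0.15), of the gelatinases 1 of 2, of the stromelysins 1 of 2, of the collagenases 1 of 1 and of the metalloelastase group 0 of 1. ADAMTS proteoglycanases had 5 of 7 (median 0.29), and 3 of 7 without female replicate 4 (median -0.14). Procollagen N-proteinases had 2 of 3, the pair cutting cartilage oligomeric matrix protein 2 of 2 and the other ADAMTS genes 5 of 5 (median 0.37). No member of any role passed the test.

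Genes around these families did not pass between the sexes either. Of 14 tested activators and regulators edgeR called 0, and 9 lay above 0. For the plasminogen activator gene Plat the edgeR adjusted p was 0.920, at a log2 fold change of 0.36 (SE 0.26). Reck, a membrane-anchored MMP inhibitor, had a male mean of 25.7 ± 3.45 CPM and a female mean of 27.5 ± 5.76 CPM (SD, n = 4 each). Of 13 tested ADAM and ADAMTS-like relatives 0 were called, with Adam15 (log2 fold change -0.16, SE 0.08) and Papln (-0.38, SE 0.25) of smallest p. Of 16 tested matrix substrates 0 were called, with the aggrecan gene Acan (1.23, SE 0.50, edgeR adjusted p = 0.749) and Col1a1 (-0.35, SE 0.29) first. Of 12 tested cytokine and AP-1 genes 0 were called, with Tnf first, its male mean being 2.47 ± 0.583 CPM against a female mean of 4.19 ± 0.296 CPM (0.76, SE 0.20, edgeR adjusted p = 0.509) and Junb next (-0.22, SE 0.10). At an unadjusted p under 0.05 stood Acan among the substrates, Tnf among the cytokine and AP-1 genes, and 0 of the ADAM relatives.

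Of the marker lists, fast muscle genes had a median log2 fold change of -0.45 (1 of 20 above 0), but 0.83 (20 of 20) without male replicate 2. Mast cell markers had 0.43 (8 of 8 above 0), and 0.016 (4 of 8) without female replicate 4. Keratinocyte markers had -0.17 (1 of 10), and -0.084 (3 of 10) without female replicate 4. Fibroblast markers had 0.0033 (5 of 9) and macrophage markers -0.027 (4 of 10), and without female replicate 4 they had -0.38 (0 of 9) and -0.53 (0 of 10). Without female replicate 2 macrophage markers had 0.19 (10 of 10). No gene of these 5 lists was called by edgeR. At an unadjusted edgeR p under 0.05 stood 3 of 10 keratinocyte markers, Lor, Ivl and Krt10, all lower in females. Lor had the smallest p of these (log2 fold change -0.43, SE 0.12, edgeR adjusted p = 0.511). So did 1 of 8 mast cell markers, Tpsab1, higher in females, and 0 of the fast muscle, fibroblast and macrophage genes. Over all tested genes the share was 6.53%. The 8 mast cell markers summed to 107 to 160 CPM in males and 83.4 to 301 CPM in females. Their part in the members' values between the sexes was not tested.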

How the data were processed

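Whole-number read counts per gene symbol were deposited by the authors as 1 file per library, without normalization. The build named is mm9 and the tools are HTSeq, TopHat2 and bcl2fastq, per the submitters' processing notes; the sources used here give neither their versions, nor the gene annotation, nor whether counting used strand. Per the labels' protocols, libraries were stranded, poly(A)-selected and read single-end. The 5 summary lines of the counter name no gene and were left out. Reads in no feature were 18.0 to 18.8% of uniquely placed reads in males. In females they were 20.4, 20.5 and 21.1% in replicates 1 to 3 and 18.0% in replicate 4. The cause of this difference was not tested.

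Counts were tested female against male with edgeR 4.0.16 (R 4.3.3): filterByExpr (14790 of 22609 genes), TMM scaling, robust quasi-likelihood test, Benjamini-Hochberg over all tested genes. CPM are TMM-scaled. The SE was derived from each gene's fold change and F statistic, and intervals use the test's degrees of freedom. Log2 CPM for lists has a prior count of 2. The relation to marker lists was planned with adjustment over member pairs alone and is given adjusted over all genes instead. On simulated data the test was checked. Alternatives were other size factors, DESeq2 1.42.0, limma-voom (limma 3.58.1), other filters, a non-robust fit, a replicate block, a muscle covariate and each library left out.

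Values by library were given by rule for the Timp genes, the 4 Mmp and 4 Adamts genes highest per kb, the 5 of smallest p in each direction, the 5 of largest dispersion and those without overlap; other members got ranges. Pdgfra and Reck were chosen after their values were seen. Members and lists were chosen with earlier results of these data known. Replicates of a sex differed by at least 13.2 in chi-square per degree of freedom, so none was a repeat of another. Reads placed in several loci were not counted, so genes of similar sequence may be undercounted. The summary line for them held 45.2 to 48.7% of all counts of a library, summary lines included. How alike Mmp1a and Mmp1b are was not measured. Coordinates are those of the promoter table's build, not of mm9. One gene of the activator and regulator list is not reported here.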

Additional observations from a re-analysis of the deposited data

Results flagged for a closer look

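In 72 sets of 4 libraries of the same sex (36 tested members, 2 sexes), 2 held a library set apart from its group beyond Dixon's 95% limit, taken on log2 CPM, where chance gives about 1 in 20. Adamts19 stood at 1.99 CPM in female replicate 3 and at 6.24 to 7.84 CPM in the other females. Adamts7 stood at 9.11 CPM in male replicate 3 and at 5.94 to 6.32 CPM in the other males.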

How the results depend on the processing

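The count of 0 members called held under all 9 alternative settings and with each library left out, where it ranged from 0 to 0. Over all genes, DESeq2 called 111, the replicate block 7 and edgeR 14, and with a library left out the count was 8 to 16. The replicate block called 0 members; same-numbered males and females did not deviate together (correlations -0.308, -0.168, -0.091 and -0.271), so numbers were not taken as pairs. The median log2 fold change of the members ranged from -0.063 to 0.27 with a library left out, lowest without female replicate 4. By family it ran from -0.15 to 0.22 for Mmp and -0.17 to 0.33 for Timp genes, each lowest without that library. For Adamts genes it ran from 0.16 to 0.32, lowest without female replicate 1. Members without overlap numbered 1, but 2 with plain library totals and 1 to 4 with a library left out. With a CPM of at least 2 in 4 libraries they numbered 0, as Mmp16 was then not tested. The share of all genes without overlap (4.73%) was computed in the main setting alone, so the other counts have no share beside them. Member-list relations past the test numbered 3, but 5 with plain library totals and 0 to 0 with a library left out, where fewer libraries raise the smallest possible p. With the muscle covariate Mmp2 (0.053), Timp2 (0.040) and Timp4 (0.043) changed sign. In that fit 6 members had an unadjusted p under 0.05, but the share of all genes was not computed, so nothing is drawn from this count. With a library left out the range crossed 0 for Mmp2 (-0.28 to 0.090), Mmp14 (-0.15 to 0.18), Mmp3 (-0.15 to 0.34), Mmp12 (-0.36 to 0.030), Adamts15 (-0.14 to 0.45), Adamts8 (-0.17 to 0.61), Timp2 (-0.35 to 0.073) and Timp4 (-0.82 to 0.33); none of these was called. Except where a fewer-library limit is named, the cause of these changes was not tested. Depth limits Mmp16, Mmp25, Mmp27, Adamts8 and Adamts18 most, with at most 67 counts in any library. The left-out libraries for marker lists, roles and relations were chosen after seeing the data.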
